A study of Homo sapiens with 6 samples.

Results

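The expression of 10 nuclear receptor genes was examined in Huh7 cells, an established human hepatoma cell line, after overexpression of the circular RNA hsa_circ_0098181. The receptors were taken by name from the deposited table and made up 10 of its 50868 genes: NR1H4, NR1H3, NR1H2, NR1I2, NR1I3, NR0B2, ESRRA, THRB, NR2F1 and NR2F2. 3 libraries came from Huh7 cells transfected with the overexpression plasmid by lipofection, and 3 came from Huh7 cells that received the control plasmid in the same way. Total RNA was taken 48 h after transfection in both groups. The cells grew in DMEM with fetal bovine serum, and the labels name no added bile acid, oxysterol, thyroid hormone or drug. The transfection was transient and used 1 cell line, and the share of cells that took up the plasmid is not given in the labels. RNA sequencing was performed on bulk RNA, in which fewer cells with a transcript and less of it per cell cannot be told apart. The comparison asks how the receptor genes of bile acid, sterol, drug and energy metabolism stood after the circular RNA was raised.

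Nuclear receptors are transcription factors, most of which are switched by small lipophilic ligands, and many bind DNA as partners of retinoid X receptors. In the liver, NR1H4 (FXR) senses bile acids, NR1H3 and NR1H2 (LXRα and LXRβ) sense oxysterols, and NR1I2 (PXR) and NR1I3 (CAR) sense drugs and other foreign compounds. NR0B2 (SHP) lacks a DNA-binding domain, is induced by FXR, and represses other receptors, which lowers bile acid synthesis. ESRRA (ERRα) is an orphan receptor of mitochondrial and energy metabolism, THRB is the main thyroid hormone receptor of liver, and NR2F1 and NR2F2 (COUP-TFI and COUP-TFII) are orphan receptors that mostly repress.

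The libraries held 11130902 to 14138262 counts in genes. SOX5, the host gene of hsa_circ_0098181, stood at 1905, 2396 and 2012 CPM (counts scaled to the size of the library) with the overexpression plasmid and at 41.8, 34.4 and 31.3 CPM with the control plasmid, so the labels fit the target, although a gene count does not separate the circular from the linear transcript. A count of 3 in 1 library, the smallest taken as detection, equals 0.212 to 0.270 CPM, and this limit covers counting error only. All 8 hepatocyte marker genes passed the filter on low counts, with summed levels of 29708 to 32649 CPM in the overexpression group and 28972 to 34906 CPM in the control group. Among the markers of other cell types, KRT7 and VWF were near 0 (3 counts and 1 count over all libraries), while the biliary markers as a whole summed to 310 to 356 CPM and the endothelial markers to 46.9 to 59.1 CPM. The stellate and fibroblast markers summed to 11.3 to 14.98 CPM and the leukocyte markers to 7.85 to 13.8 CPM. Mitochondrial genes took 6.32% to 7.04% of the counts in the overexpression group, 9.29% in control replicate 1 and 6.71% and 6.94% in the other control libraries. The labels do not say whether the 3 samples of a group came from separate cultures, so the p-values measure the spread between these samples, which may be technical.

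The sequences below show where the receptor transcripts could pair with miR-18a-3p, the microRNA that the study placed downstream of hsa_circ_0098181. The mature microRNA (RefSeq, GRCh38.p14, chr13:91350797-91350819, plus strand) is printed with its seed, bases 2 to 8, in capitals. The complement of the full seed is AGGGCAG. It occurred in the 3′ UTR of 0 of the 10 receptors, in the longest coding transcript of each gene in GENCODE 29, against 19.0% of 12519 tested coding genes. The shorter match to bases 2 to 7, GGGCAG, occurred in the 3′ UTR of NR0B2 and of ESRRA, once in each, and in 41.3% of tested coding genes. Both windows are printed on the strand of the transcript with that match in capitals. The NR0B2 window lies at chr1:26911810-26911831 (GRCh38, minus strand) in a 3′ UTR of 356 bases, and the ESRRA window lies at chr11:64316036-64316057 (GRCh38, plus strand) in a 3′ UTR of 777 bases.
hsa-miR-18a-3p: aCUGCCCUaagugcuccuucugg
NR0B2: aggcagagatcaggtGGGCAGa
ESRRA: gcggagctggggtctGGGCAGt
THRB had the longest 3′ UTR of the 10, with 5731 bases, and of the tested genes with a 3′ UTR within 1.5-fold of that length 40.7% held the full seed complement. That share was 26.2% for NR2F2, and from 3.1% (NR1H3) to 15.9% (NR1I2) for the other receptors, whose 3′ UTRs are shorter. For the shorter match the share was 21.4% at the length of NR0B2 and 33.9% at that of ESRRA. The matches are a description of letters and not of binding.

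The starts of the receptor genes were searched for AGGTCA, the half-site that most of these receptors recognise. RefSeq promoters (GRCh38.p14, from 250 bases before to 50 bases after a transcript start) matched 9 of the 10 genes with 16 entries, and NR0B2 had no entry. AGGTCA occurred on either strand in 1 promoter of NR1H3 and in the promoter of NR1H4, against 13.8% of all 35116 promoters. The pairs of half-sites AGGTCANTGACCT, AGGTCANAGGTCA and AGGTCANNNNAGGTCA, searched on both strands, occurred in 0 of the 16 entries and in 0, 8 and 7 of all 35116 promoters, so their absence here says nothing particular about these genes. Each pair includes the half-site itself. The 2 matches are shown in capitals in windows of the plus strand, with NR1H3 at chr11:47248149-47248176 and NR1H4 at chr12:100503119-100503146.
NR1H3: ggtttgcctatAGGTCAgaagcatcccc
NR1H4: agcatggcactTGACCTccaagtccagt
In NR1H4 the half-site reads on the opposite strand. The start used by that entry lies inside the span of the gene in the table.

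The levels of the receptors were compared per length, as CPM per kilobase of merged exons. NR1H4 was the highest of the 10 with a mean of 40.8 over the 6 libraries (33.6 to 44.8). NR0B2 followed at 20.2 and NR2F1 at 18.4, then NR2F2 at 13.2, THRB at 7.502, ESRRA at 6.78, NR1H2 at 5.52 and NR1H3 at 5.27. NR1I2 was far below these at 0.443, and NR1I3 was last at 0.0127. In this order the ranges over the libraries did not overlap between NR1H4 and NR0B2, between NR2F2 and THRB, between NR1H3 and NR1I2, or between NR1I2 and NR1I3. The other neighbours overlapped in range. NR1H4 was 2.02 times NR0B2, and NR1H3 was 11.9 times NR1I2. These ratios hold for merged exon length. On the deposited FPKM scale the means were 26.1 for NR1H4 and 20.2 for NR0B2, and 1.58 for NR1H3 and 0.315 for NR1I2. Ranges were not compared on that scale. The bile acid receptor gene was thus the highest, and the genes of the drug-sensing receptors were the lowest.

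Among 48 nuclear receptor genes, the 10 receptors and 38 others, NR1H4 ranked 1, NR0B2 3, NR2F1 5, NR2F2 7, THRB 11, ESRRA 14, NR1H2 17, NR1H3 18, NR1I2 32 and NR1I3 38 per merged exon length. NR2F6, another orphan receptor, ranked 2 with 38.8 and a range of 27.9 to 44.5 that overlapped that of NR1H4. The order shifted on the deposited FPKM scale, which uses another length for many of these genes. NR2F6 then ranked above NR1H4, with mean FPKM of 34.1 and 26.1, and NR1H3 fell to rank 24. The 10 receptors summed to 42.4% of the per-length level of all 48.

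**Figure D1:**
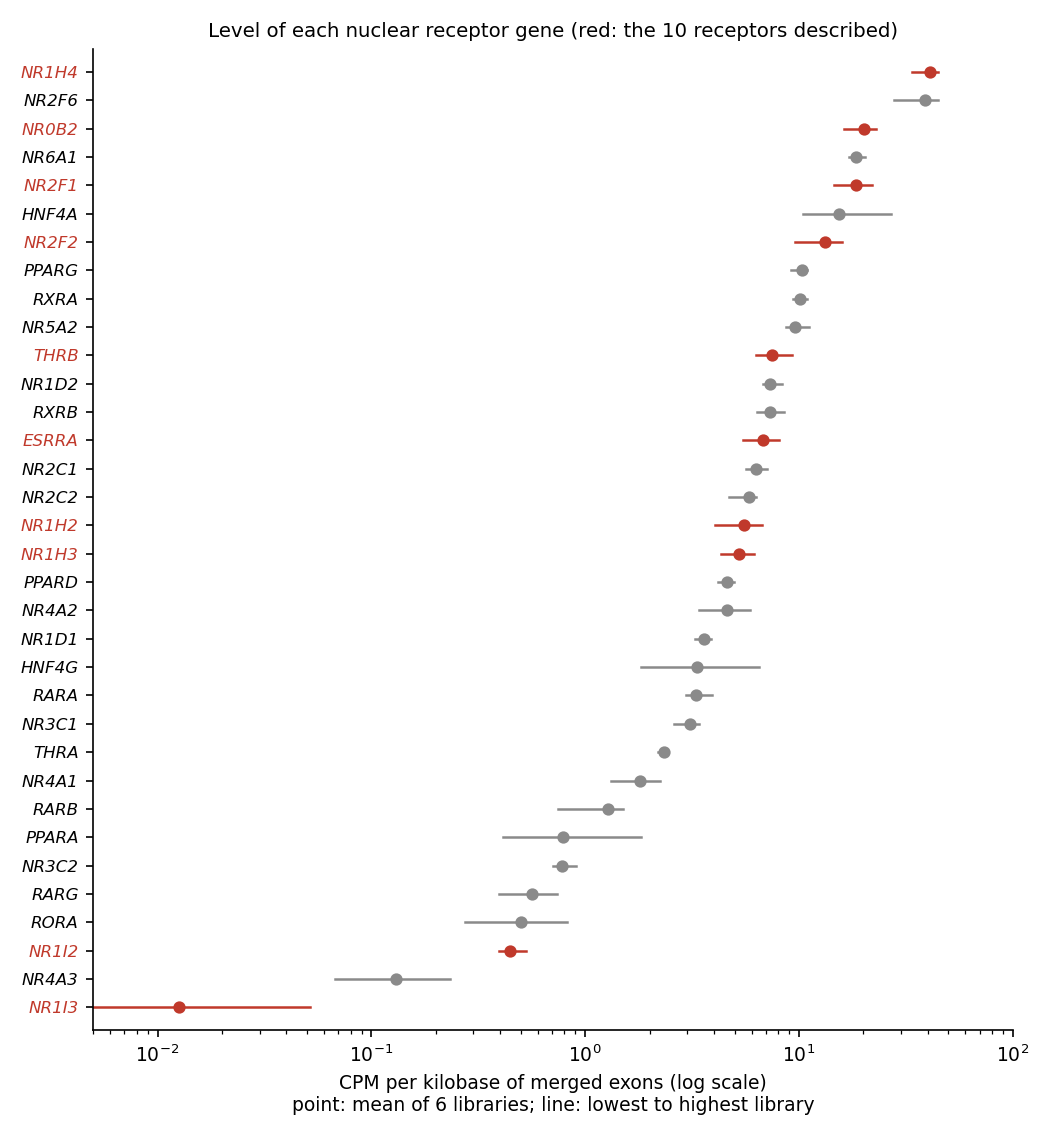
Mean level of 34 nuclear receptor genes (the 33 that passed the filter on low counts, and NR1I3) as CPM per kilobase of merged exons on a log axis that starts at 0.005, with lines from the lowest to the highest of the 6 libraries. The 10 receptors are in red, from NR1H4 at 40.8 to NR1I3 at 0.0127, and the line of NR1I3 reaches 0 beyond the axis.

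Of the 10 receptors, 9 passed the filter on low counts and were tested, and NR1I3 was not. The quasi-likelihood test of edgeR was used, with p-values adjusted by the Benjamini-Hochberg method over all genes tested. At an adjusted p under 0.05, 0 of 9 receptors passed, against 0.0399% of the 15055 genes tested (6 genes, 4 higher and 2 lower). The adjusted p-values of the receptors ran from 0.797 to 0.985. DESeq2 and limma also called 0 receptors. At an unadjusted p under 0.05 the count was 1 (THRB), against 5.5% of all genes tested, and several alternatives given with THRB below lost it. The 3 libraries of one group lay all above or all below the other in 0 of 9 receptors, against 12.9% of all genes tested. The fold change was above 0 in 8 of 9 receptors, against 50.5% of all genes tested, and the count was 5 of 9 after removal of the length and GC trends described below. The median log2 fold change of the 9 was 0.076, beside 0.0023 over all genes.

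**Figure D2:**
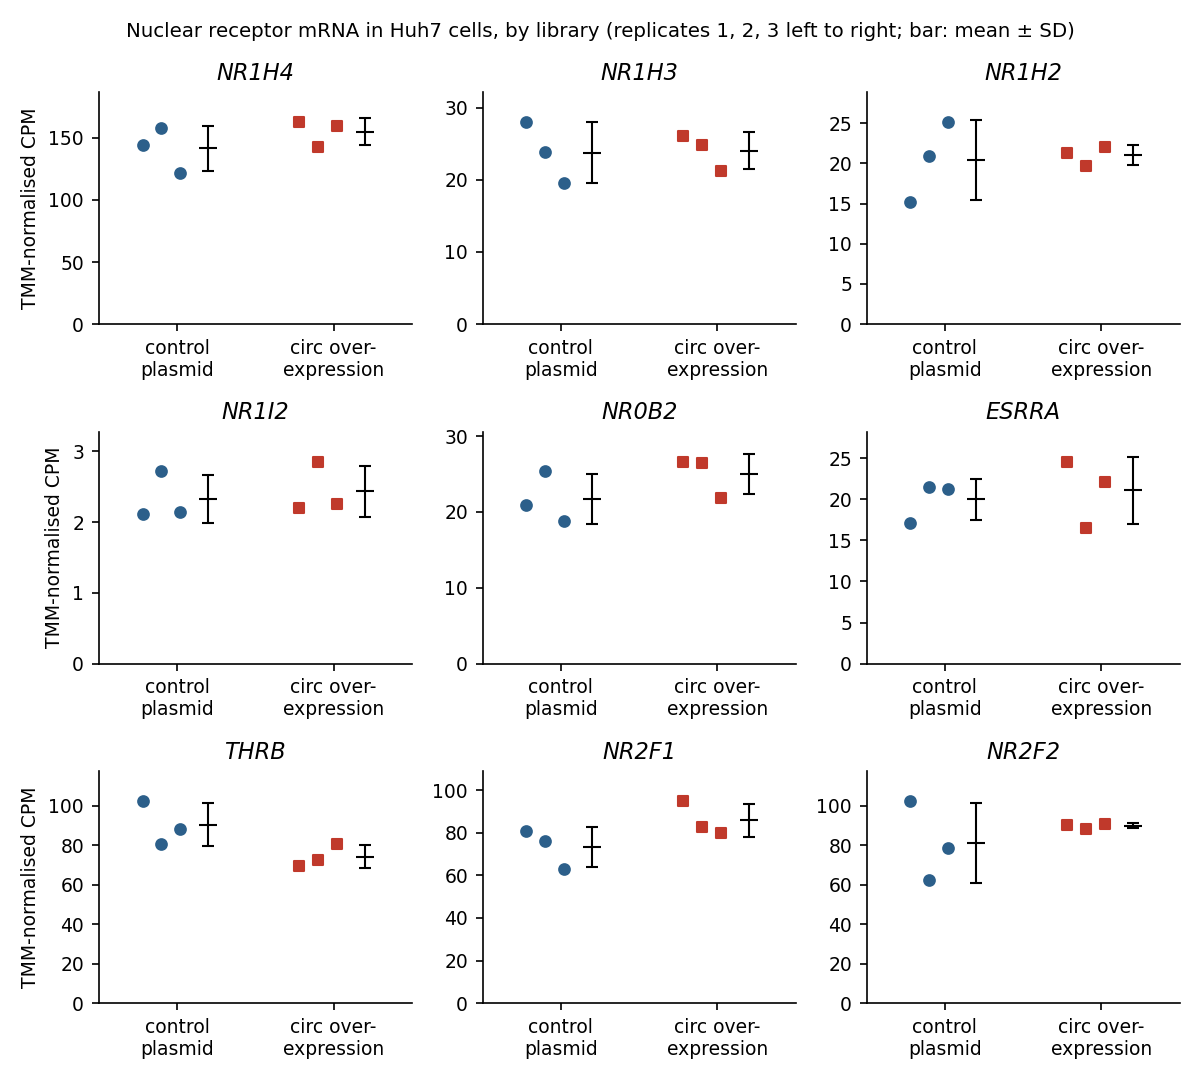
TMM-normalised CPM of the 9 tested receptors in each library, with control plasmid libraries as blue circles, circ overexpression libraries as red squares, and the mean ± SD of 3 libraries beside them. Each axis starts at 0, and in every panel the 2 groups overlap, most narrowly in THRB and NR2F1.

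NR1H4 (ENSG00000012504, chr12:100473708-100564413, GRCh38) encodes FXR, the bile acid receptor. Its level was 162, 142 and 159 CPM in overexpression replicates 1, 2 and 3 and 145, 157 and 122 CPM in control replicates 1, 2 and 3. The groups overlapped, and control replicate 3 was the lowest library. The log2 fold change was 0.13 ± 0.11 (SE, n = 3 per group, edgeR adjusted p = 0.830), with a 95% interval from -0.13 to 0.39. The interval covers a fold of 0.914 to 1.31. Without control replicate 3 the value was 0.035, and without control replicate 2 it was 0.22.

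NR0B2 (ENSG00000131910, chr1:26911489-26913966) encodes SHP, the repressor that FXR induces. It stood at 26.6, 26.4 and 21.9 CPM with overexpression and at 20.9, 25.4 and 18.8 CPM in the control libraries. 2 overexpression libraries were above every control library, and the third lay among them. The log2 fold change was 0.20 ± 0.15 (SE, n = 3 per group, edgeR adjusted p = 0.798), with an interval from -0.13 to 0.54. Its merged exons are the shortest of the 10, with 1156 bases. With the length and GC trends removed the value was 0.089, and leaving out 1 library gave 0.11 (without control replicate 3) to 0.33 (without control replicate 2).

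The ratio of SHP to its inducer was taken within each library. NR0B2 counts were 0.164, 0.186 and 0.138 of NR1H4 counts with overexpression and 0.145, 0.161 and 0.155 in the control libraries. The control ratios lay inside the range of the overexpression ratios. The log2 ratio was -2.63 ± 0.22 (SD, n = 3) against -2.70 ± 0.077 (SD, n = 3), a difference of 0.070 with an exact two-sided permutation p of 0.6 (1.0 after adjustment over the 3 ratios tested), where 3 against 3 libraries cannot go below 0.1.

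The oxysterol receptors NR1H3 (ENSG00000025434, chr11:47248300-47269032) and NR1H2 (ENSG00000131408, chr19:50329653-50382982) were close to each other in CPM and per merged exon length. Their mean deposited FPKM lay further apart, at 1.58 for NR1H3 and 2.43 for NR1H2. NR1H3, the LXRα gene, stood at 26.1, 24.8 and 21.2 CPM with overexpression and at 28.0, 23.8 and 19.5 CPM in the control libraries. NR1H2, the LXRβ gene, stood at 21.3, 19.7 and 22.1 CPM against 15.2, 20.9 and 25.1 CPM. For both genes the overexpression libraries lay inside the range of the control libraries. The log2 fold changes were 0.017 ± 0.155 and 0.041 ± 0.18 (SE, n = 3 per group, edgeR adjusted p = 0.985 and 0.968). The 95% intervals ran from -0.34 to 0.37 and from -0.36 to 0.45, so a change of either gene beyond 1.29-fold and 1.36-fold upward would lie outside them. NR1H3 shares 189 exon bases with ACP2 on the opposite strand. How reads there were assigned is not given in the sources used here.

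The ratio of NR1H3 to NR1H2 counts spread more in the control libraries (1.83, 1.14 and 0.777) than with overexpression (1.22, 1.26 and 0.960). The mean log2 ratio was 0.19 ± 0.22 (SD, n = 3) with overexpression and 0.23 ± 0.62 (SD, n = 3) in the control group, with an exact two-sided permutation p of 1.0. The difference was -0.047, and it was 0.27 without control replicate 1.

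NR1I2 (ENSG00000144852, chr3:119780484-119818485), the PXR gene, was low. It had 31, 40 and 28 counts with overexpression and 23, 32 and 26 in the control libraries, which is 2.20, 2.85 and 2.26 CPM against 2.12, 2.73 and 2.14 CPM. Replicate 2 was the highest library of both groups. The log2 fold change was 0.066 ± 0.24 (SE, n = 3 per group, edgeR adjusted p = 0.964). Its 95% interval, from -0.49 to 0.62, was the widest of the 9.

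NR1I3 (ENSG00000143257, chr1:161229666-161238302), the CAR gene, had 0, 0 and 1 counts with overexpression and 0, 2 and 0 counts in the control libraries. All 6 values are below the limit of 3 counts, so no fold change is given. It overlaps TOMM40L on the opposite strand by 661 exon bases, and TOMM40L held 1612 counts over the 6 libraries.

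ESRRA (ENSG00000173153, chr11:64305572-64316743), the ERRα gene, stood at 24.6, 16.6 and 22.1 CPM with overexpression and at 17.2, 21.5 and 21.2 CPM in the control libraries. The highest and the lowest library were both overexpression libraries. The log2 fold change was 0.076 ± 0.17 (SE, n = 3 per group, edgeR adjusted p = 0.930), with an interval from -0.31 to 0.47. Without overexpression replicate 1 it was -0.049, and without overexpression replicate 2 it was 0.22. ESRRA shares 284 exon bases with TRMT112 on the opposite strand, whose log2 fold change was 0.34 ± 0.16 (SE, edgeR adjusted p = 0.797).

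THRB (ENSG00000151090, chr3:24117160-24495282), which encodes thyroid hormone receptor β, was the receptor with the lowest fold change. Its level was 69.3, 72.5 and 80.8 CPM with overexpression and 102, 80.6 and 88.3 CPM in the control libraries. 2 overexpression libraries were below every control library, and overexpression replicate 3 was just above control replicate 2. The log2 fold change was -0.28 ± 0.115 (SE, n = 3 per group), with a 95% interval from -0.55 to -0.021, an unadjusted p of 0.0373 in edgeR and an adjusted p of 0.797. The value therefore did not pass the test across all genes. The unadjusted p was also above 0.05 with a replicate block (0.0627 in edgeR), in limma (0.0630 and 0.0611), and in the edgeR fits without overexpression replicate 1 or 2 or control replicate 1 or 3 (0.0580 to 0.115). It was -0.18 without control replicate 1 and -0.18 with the length and GC trends removed (unadjusted p = 0.0762 in edgeR). THRB has the longest merged exons of the 10, with 10968 bases.

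NR2F1 (ENSG00000175745, chr5:93583337-93594615) and NR2F2 (ENSG00000185551, chr15:96325938-96340263) encode the COUP-TF repressors. NR2F1 stood at 94.7, 82.7 and 79.9 CPM with overexpression and at 80.7, 76.3 and 62.9 CPM in the control libraries. The lowest overexpression library was below the highest control library by a small margin, and the order turned on the upper-quartile, total-count and deposited FPKM scales, where the groups did not overlap. Its log2 fold change of 0.23 ± 0.12 was the highest of the 9 (SE, n = 3 per group, edgeR adjusted p = 0.797), with an interval from -0.050 to 0.50. Without control replicate 3 it was 0.13. NR2F1 shares 158 exon bases with its antisense gene NR2F1-AS1, which stood at 12.2, 11.8 and 12.1 CPM against 9.04, 12.3 and 8.97 CPM. The strand used in counting is not given in the sources used here, so reads of the shared bases cannot be told apart.

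NR2F2 stood at 90.1, 88.3 and 90.7 CPM with overexpression and at 102, 62.1 and 78.4 CPM in the control libraries. The overexpression libraries were close together, and the control libraries lay on both sides of them. The log2 fold change was 0.15 ± 0.16 (SE, n = 3 per group, edgeR adjusted p = 0.855), with an interval from -0.22 to 0.52. Leaving out control replicate 2 gave -0.0089, and leaving out control replicate 1 gave 0.35. The ratio of NR2F2 to NR2F1 counts was 0.951, 1.07 and 1.14 with overexpression and 1.26, 0.814 and 1.25 in the control libraries. Its mean log2 value differed by -0.051 between the groups, with an exact two-sided permutation p of 0.9.

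**Figure D3:**
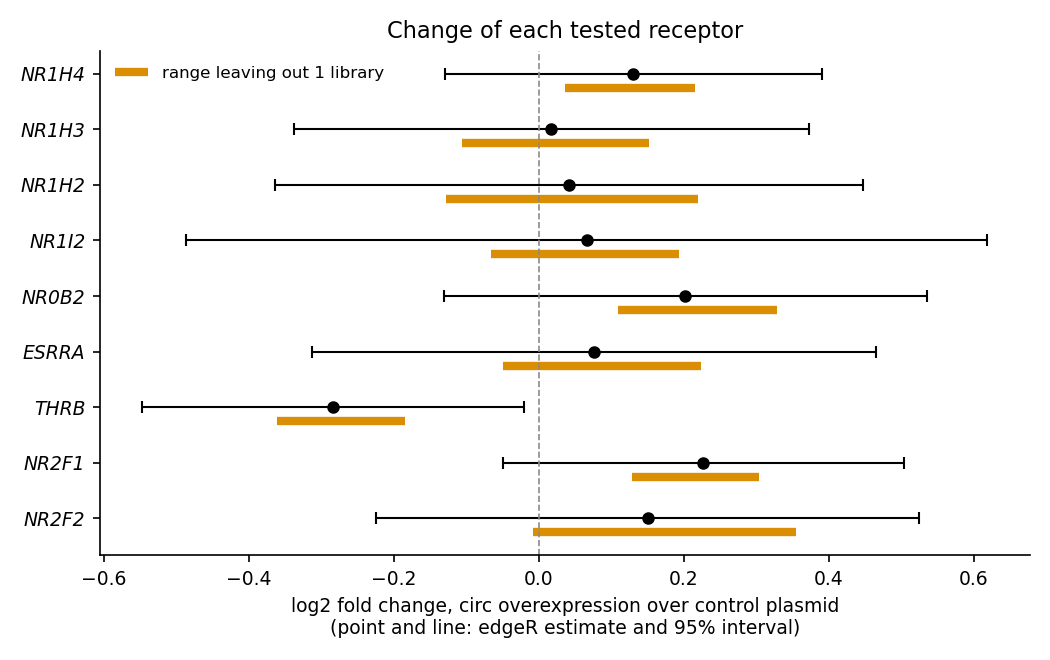
Log2 fold change of the 9 tested receptors, circ overexpression over control plasmid, with points and lines for the edgeR estimate and its 95% interval and orange bars for the range over the 6 fits that each leave out 1 library. The interval of THRB ends at -0.021 and those of the other 8 receptors include 0, and the orange bars of NR1H3, NR1H2, NR1I2, ESRRA and NR2F2 cross 0.

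Fold changes varied with merged exon length across the whole table. In the fifth of genes with the shortest merged exons (up to 2395 bases) the median log2 fold change was 0.092, and in the fifth with the longest (from 7857 bases) it was -0.090. Replicate 1 of each group carried most of this difference. The median deviation of a gene from its own mean over the 6 libraries was 0.11 in the shortest and -0.11 in the longest class in overexpression replicate 1, and -0.11 and 0.11 in control replicate 1. In the other 4 libraries these medians ran from -0.0043 to 0.027. After each library's trend with the length and GC content of the longest transcript of each gene was removed, the class medians ran from -0.012 to 0.014. Before this removal every tested receptor except NR2F2 lay on the same side of 0 as its class. NR2F2 was at 0.15 in a class with a median of -0.023. After it NR1H3, NR1H2 and ESRRA stood at -0.020, -0.039 and -0.033, and NR1H4, NR1I2, NR2F1 and NR2F2 at 0.13, 0.094, 0.20 and 0.20. 0 of 9 receptors passed the test in the corrected fit.

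**Figure D4:**
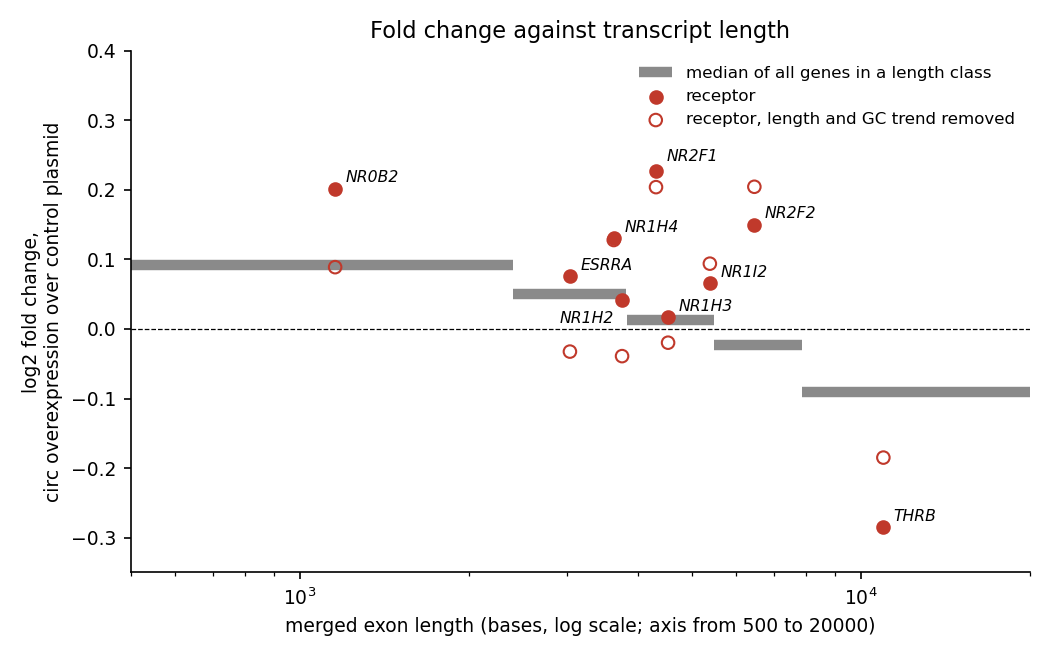
Log2 fold change against merged exon length on a log axis, with grey bars for the median of all tested genes in each of 5 length classes, filled points for the 9 receptors and open points for the same receptors after removal of the length and GC trends. The grey bars fall from 0.092 to -0.090 with length, and the open points of NR0B2 (0.089) and THRB (-0.18) lie closer to 0 than the filled ones.

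Genes that the receptors are known to induce were read beside them. Of 14 FXR-induced genes, all 14 were tested, 9 lay above 0 and 5 below, and 0 passed the test, with a median log2 fold change of 0.043. That median was 0.18 without control replicate 1, -0.073 without control replicate 3 and -0.043 without overexpression replicate 1. FGB and FGA, 2 chains of fibrinogen, were the most abundant of them by CPM, with log2 fold changes of 0.054 and 0.081. SLC51A, a subunit of the basolateral bile acid exporter, had the highest value at 0.41 ± 0.36 (SE), and SDC1, the syndecan-1 gene, the lowest at -0.24 ± 0.25 (SE). SLC51A was at 3.29 CPM in control replicate 3 and at 8.58 to 10.9 CPM in the other libraries. FGA was at 627 CPM in overexpression replicate 3 and at 608 CPM in control replicate 3, against 1372 to 1551 CPM in the other 4 libraries.

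The bile acid synthesis and conjugation list had 15 genes, of which 11 were tested. 10 of the 11 lay above 0 and 1 below, against 50.5% of all genes tested above 0. 0 passed the test, and the median was 0.13. The median merged exon length of the list was 3389 bases, in a length class with a median of 0.050. With the length and GC trends removed the list's median was 0.135. CYP7A1, which starts the classic route and is the gene that SHP represses, had 1 count in total over the 6 libraries, and CYP8B1 and CYP7B1 were also near 0, with at most 4 counts in any library. HSD17B4 and SCP2, of peroxisomal side-chain shortening, were the most abundant by CPM, with log2 fold changes of -0.039 and 0.16, and the former was the lowest of the list. SLC27A5, which couples bile acids to coenzyme A, had the highest value at 0.50 ± 0.29 (SE, edgeR adjusted p = 0.797), at 1.203, 1.499 and 1.212 CPM against 0.923, 0.937 and 0.905 CPM.

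Of 14 LXR-induced genes 11 were tested, with 5 above 0, 6 below, 0 past the test and a median of -0.038. SCD and FASN, enzymes of fatty acid synthesis, led in CPM with log2 fold changes of -0.087 and -0.038. APOE, an apolipoprotein, was the highest at 0.27 ± 0.14 (SE), and ABCG5, a sterol exporter, the lowest at -0.44 ± 0.39 (SE).

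Of 15 PXR and CAR-induced genes 13 were tested, with 7 above 0, 6 below, 0 past the test and a median of 0.027. CYP3A4, the main drug-oxidising enzyme of liver, had at most 10 counts in a library and CYP2A6 had 0 counts in all 6. SULT2A1, a sulfotransferase of steroids and bile acids, stood at 51.1, 47.5 and 55.5 CPM with overexpression and at 41.7, 40.5 and 46.3 CPM in the control libraries. Its log2 fold change was 0.26 ± 0.11 (SE, n = 3 per group), with an unadjusted p of 0.0372 and an adjusted p of 0.797 in edgeR. The groups did not overlap in 4 of the 13 tested genes, against 12.9% of all genes tested. SULT2A1 and GSTA2 were higher with overexpression, and CYP3A5 and ABCC2 were lower, where GSTA2 was named after its values were seen. By merged exons, SULT2A1 and GSTA2 lie in the shortest length class, with a median of 0.092. CYP3A5 and ABCC2 are longer and lie in a class with a median of -0.023. Whether the length trend accounts for these differences was not tested. GSTA1, a glutathione transferase, was the highest at 0.44 ± 0.26 (SE) and CYP3A5 the lowest at -0.47 ± 0.21 (SE). ABCC2, an exporter of conjugates, and POR, the electron donor of cytochrome P450 enzymes, were the most abundant by CPM, with values of -0.12 and 0.027.

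The 9 ERR-induced genes were all tested, with 6 above 0, 3 below, 0 past the test and a median of 0.027. CYCS (cytochrome c) and ATP5F1B (a subunit of ATP synthase) led in CPM with log2 fold changes of 0.23 ± 0.11 and 0.23 ± 0.17 (SE). Control replicate 1 was the lowest library in both. CYCS stood there at 429 CPM, against 528 to 615 CPM in the other libraries, and ATP5F1B at 423 CPM, against 561 to 714 CPM. PDK4, a kinase that limits glucose oxidation, was the lowest gene of the list at -0.46 ± 0.29 (SE). Of 8 thyroid hormone-induced genes 5 were tested, with 3 above 0, 2 below, 0 past the test and a median of 0.0063. DIO1, the deiodinase that makes active hormone, was the highest at 0.43 ± 0.37 (SE) at a level near 1 CPM, and KLF9, a transcription factor, the lowest at -0.31 ± 0.145 (SE). ME1 and FURIN, the most abundant, had log2 fold changes of 0.0063 and 0.0066. THRSP and PCK1, classic hormone targets, had 1 count each over all 6 libraries.

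The coregulators that the receptors recruit were tested in full, with 13 of 16 below 0, 3 above, 0 past the test and a median of -0.15. MED1, the Mediator subunit that nuclear receptors bind, stood at 94.2, 118 and 132 CPM with overexpression and at 162, 141 and 137 CPM in the control libraries, with a log2 fold change of -0.36 ± 0.13 (SE, unadjusted p = 0.0282, edgeR adjusted p = 0.797). NRIP1, a corepressor, and EP300, a histone acetyltransferase, had log2 fold changes of -0.42 each, with unadjusted p-values of 0.0477 and 0.0410 in edgeR. The groups did not overlap in 5 of the 16 genes, against 12.9% of all genes tested. These were MED1, NRIP1, EP300 and NCOA3, all lower with overexpression, and TBL1XR1, which was higher, where NCOA3 was named after its values were seen. NCOR1 and NCOA2, a corepressor and a coactivator, were the most abundant by CPM, with values of -0.30 and -0.19, and TBL1XR1 was the highest at 0.11. The median merged exon length of the list was 9559 bases, in the class of genes that was lower in the overexpression group, and the list's median was -0.096 with the length and GC trends removed and -0.072 without control replicate 1.

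Of the 38 other nuclear receptors 24 were tested, with 13 above 0, 11 below, 0 past the test and a median of 0.024. PPARA, the fatty acid receptor that the study followed, stood at 24.2, 7.42 and 11.4 CPM with overexpression and at 6.37, 5.45 and 7.32 CPM in the control libraries. The groups did not overlap in 2 of the 24 tested genes, PPARA and HNF4G, against 12.9% of all genes tested. In PPARA, overexpression replicate 1 was far above the rest, and overexpression replicate 2 (7.42 CPM) was only just above control replicate 3 (7.32 CPM). The log2 fold change of PPARA, 1.17 ± 0.40 (SE, unadjusted p = 0.0180, edgeR adjusted p = 0.797), was the highest of the tested receptors of any kind. HNF4G, an orphan receptor of liver and gut, stood at 9.70, 9.35 and 8.73 CPM against 31.2, 27.1 and 9.71 CPM. Control replicate 3 was only just above the overexpression libraries, and the log2 fold change was -1.29 ± 0.37 (SE, unadjusted p = 0.00761, edgeR adjusted p = 0.797). HNF4A and NR6A1, the most abundant of these 38 by CPM, had values of -0.54 and -0.042. None of the 9 tested receptors reached a fold change of the size seen in PPARA or HNF4G.

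**Figure D5:**
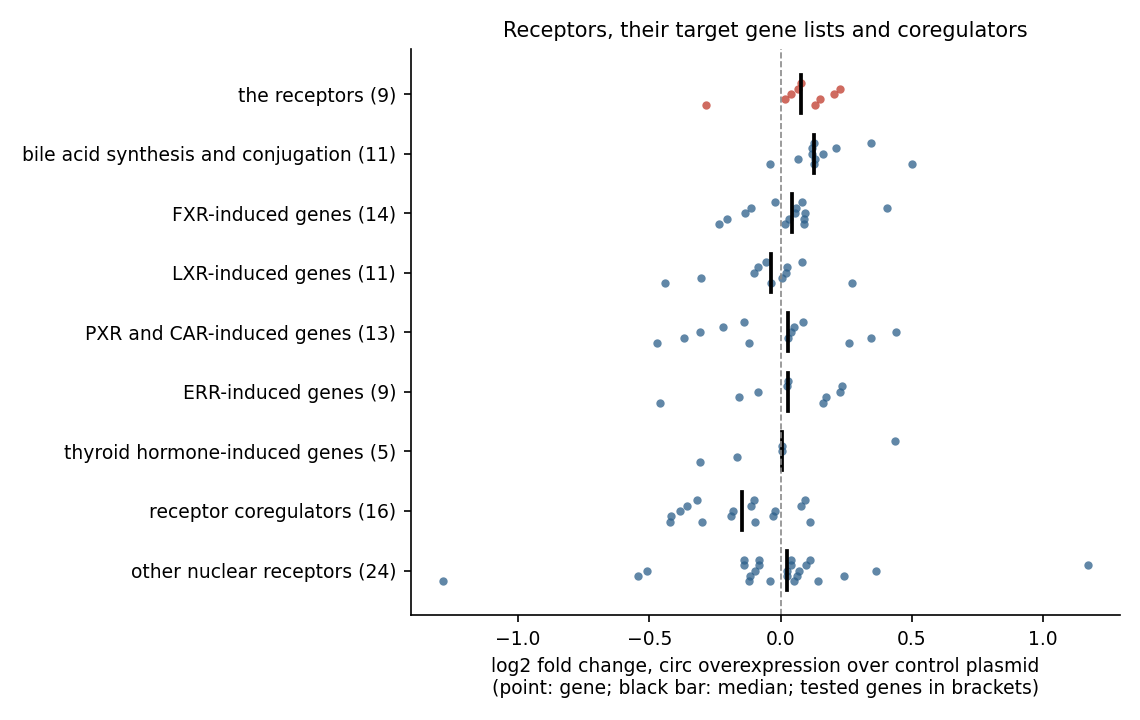
Log2 fold change of each tested gene, circ overexpression over control plasmid, by list, with a black bar at the median and the number of tested genes in brackets. The medians lie between -0.15 (coregulators) and 0.13 (bile acid synthesis and conjugation), the 9 receptors in red span -0.28 to 0.23, and the outermost points are HNF4G and PPARA.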

How the data were processed

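RNA sequencing of total RNA from 6 Huh7 samples was analysed. For each gene and library the authors deposited whole-number counts of reads and FPKM in a single table. The submitters' processing notes name TopHat2 2.0.9 and hg38. The counting tool, strand setting and annotation release are not given in the sources used here. GENCODE 29 held 98.5% of the gene IDs, and 8 of the 10 receptors had the same coordinates there. The titles of the samples gave the groups and the replicate numbers.

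The deposited counts were tested with edgeR 4.0.16 (R 4.3.3): TMM normalisation, genes kept by filterByExpr at 10 counts, and glmQLFTest, two-sided, with Benjamini-Hochberg adjustment over 15055 genes. Intervals are at 95%. CPM values used TMM library sizes. Ratios used a pseudocount of 0.5 and an exact permutation test. The tests were checked on simulated data. Over all genes tested, same-numbered samples of the 2 groups did not deviate together (correlations of -0.036, -0.023 and -0.031). Single genes could still do so, as FGA did at 627 and 608 CPM in replicate 3 of the 2 groups. Whether the replicate numbers mark a batch is not given in the labels. No 2 libraries of a group agreed within sampling noise (chi-square per degree of freedom of 10.1 to 20.9).

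All 10 receptors are named. From each gene list, the genes named are those with an unadjusted p under 0.05, the 2 of highest mean CPM, and the highest and the lowest fold change, with other genes named for counts near 0. The receptors and lists were chosen with earlier results of these data known, so no p was adjusted over a list alone. Alternatives were RLE and upper-quartile normalisation, DESeq2 1.42.0, no filter, a mean of at least 50 counts, limma 3.58.1 on the deposited FPKM (pseudocounts of 1 and 0.1), a replicate block, and fits without each library in turn. The correction for length and GC content (splines with 5 degrees of freedom, 99.4% of tested genes) and the other scales for group overlap were added after the data were seen. The correction used the longest transcript of each gene, whereas the length classes used merged exons.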

Additional observations from a re-analysis of the deposited data

How the results depend on the processing

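The number of receptors past an adjusted p of 0.05 was 0 under every alternative run. At this depth and spread (SE of 0.11 to 0.24) small changes were not detectable. Larger ones could also miss this threshold. PPARA and HNF4G, at log2 fold changes of 1.17 and -1.29 with a larger SE, had an edgeR adjusted p of 0.797. With a replicate block, 0 receptors and 4 genes passed, and THRB was at -0.28 with an unadjusted edgeR p of 0.0627. The block changed no call at an adjusted p of 0.05 among the receptors. DESeq2 called 28 genes against 6, and leaving out 1 library gave 4 to 16 (16 without overexpression replicate 2 and 10 without overexpression replicate 3). On the upper-quartile, total-count and FPKM scales 1 receptor, NR2F1, did not overlap between the groups (13.0% to 13.1% of all genes tested), and leaving out 1 library gave 0 to 3 such receptors (3 without overexpression replicate 3 or control replicate 2, 2 without overexpression replicate 2 or control replicate 1), against 20.7% to 26.4% of all genes tested.

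Receptor values that changed sign came from leaving out 1 library or from the correction for length and GC content, which was chosen after the data were seen. NR1H3 was at -0.045, -0.0080 and -0.11 without overexpression replicate 1, overexpression replicate 2 and control replicate 3, and at -0.020 corrected. NR1H2 was at -0.13 without control replicate 1 and at -0.039 corrected. NR1I2 was at -0.066 without overexpression replicate 2. ESRRA was at -0.049 without overexpression replicate 1, at -0.019 without control replicate 1 and at -0.033 corrected. NR2F2 was at -0.0089 without control replicate 2. NR1H4, NR0B2, NR2F1 and THRB kept their sign in all alternatives. The highest values on leaving out 1 library were 0.15, 0.22, 0.19, 0.22 and 0.35 for NR1H3, NR1H2, NR1I2, ESRRA and NR2F2. NR1I2 has no value at a mean of 50 counts or in limma. The cause of these shifts was not tested.

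Leaving out 1 library moved the log2 ratio differences between -0.35 and 0.27 (NR1H3 to NR1H2, 0.077 without overexpression replicate 3), -0.26 and 0.059 (NR2F2 to NR2F1, 0.019 without overexpression replicate 1 and 0.048 without control replicate 3) and -0.032 and 0.18 (NR0B2 to NR1H4). It moved the list medians between 0.11 and 0.21 (bile acid synthesis), -0.073 and 0.18 (FXR-induced), -0.073 and -0.018 (LXR-induced), -0.22 and -0.072 (coregulators), -0.016 and 0.0078 (other nuclear receptors), -0.058 and 0.030 (PXR and CAR-induced), 0.011 and 0.076 (ERR-induced) and -0.053 and 0.078 (thyroid hormone-induced). With the length and GC correction the PXR and CAR-induced median was -0.055 and the ERR-induced median 0.077. The ERR-induced median was 0.096 at a mean of 50 counts, and 0.15 and 0.18 in limma with pseudocounts of 1 and 0.1. The LXR-induced median was 0.011 and 0.014 in limma. The thyroid hormone-induced median was -0.040 and -0.054 in limma, -0.026 with the correction and -0.076 at a mean of 50 counts, where fewer genes were tested.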
